A study of Mus musculus with 28 samples.

Results

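Leukaemia inhibitory factor (LIF) keeps mouse embryonic stem (ES) cells in the undifferentiated state. It binds a receptor made of LIFR and gp130, the product of *Il6st*. Janus kinases bound to the receptor then phosphorylate the transcription factor STAT3, which enters the nucleus and binds DNA as a dimer. Among the genes it activates are *Socs3*, which shuts the receptor down again, and the serine/threonine kinase genes *Pim1* and *Pim3*. The genes described here were listed by symbol: *Lifr*, *Il6st*, *Jak1*, *Jak2*, *Stat3*, *Socs3*, *Pim1* and *Pim3*. All 8 were found by gene identifier among the 15384 genes with a value in each RNA-seq library, and all 8 also have counts in chromatin RNA.

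FACT is a histone chaperone made of SSRP1 and SUPT16. E14 mouse ES cells were transfected with lentiviral vectors that carried either a scramble control (control) or 2 different shRNAs against *Ssrp1* together (*Ssrp1* KD). Selection with 2 µg/ml puromycin followed 48 h later and lasted 24 h. Control and KD cells alike were grown on gelatin with 15% serum and 10 ng/ml LIF, so the pathway was stimulated in both. The data are RNA-seq of 4 control and 4 KD libraries with ERCC spike-in RNA, chromatin RNA of 2 E14 libraries, and peak lists of SSRP1 and SUPT16 in E14 cells. Means that the authors deposited are also given, and 1 of them includes 3 libraries of early neural progenitors. Those cells came from E14 embryoid bodies given 1 µM retinoic acid for 4 days and were then kept 3 days without LIF. Values per library are gene counts that the authors scaled to library size, called library-size values below. They summed to 825584 to 909417 in control and 1.14e+06 to 1.18e+06 in KD libraries, so they are not plain shares of the counted reads. The study's methods name TMM, a scaling by a further factor per library. E14 is a single cell line. The study's methods call the libraries of a group biological replicates, the labels do not say which came from separate cultures, and p-values measure the spread between these libraries.

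*Ssrp1* itself had library-size values of 223 to 261 in control and 24.1 to 28.9 in KD libraries, a log2 fold change of -3.15 ± 0.07 (SE, limma, n = 4 and 4, adjusted p = 1.18e-22). *Supt16* was at 296 to 346 in control and 481 to 529 in KD libraries (log2 fold change 0.66 ± 0.06). This rise is of RNA. For the protein the study reports the opposite, a loss of SUPT16 along with SSRP1, measured by mass spectrometry. Recovered reads per library were 4602278 to 6680919 in control and 9433193 to 19856032 in KD. Among 8 ES cell markers, all measured in every library, 6 were called higher (absolute log2 fold change above 1 and limma adjusted p below 0.01, the thresholds used throughout), beside 8.07% of all genes called higher and 20.6% called lower, and their summed value was 1587 to 1714 in control and 4610 to 5111 in KD libraries. In contrast, most markers of other cell types were lower in KD on this scale. The summed value of 5 fibroblast markers was 50.0 to 63.7 in control and 13.1 to 14.9 in KD (4 of 5 called lower), that of 5 primitive endoderm markers 54.2 to 80.5 and 19.0 to 24.3 (4 of 5 called lower), and that of the 4 trophectoderm markers with a value 93.6 to 123 and 67.5 to 71.0 (2 of 4 called lower). *Elf5* had no row in the table, and none of the other markers was at 0 in every library. For 5 neural markers the sums were 83.7 to 107 and 145 to 155, with *Tubb3* called higher and 2 others called lower. These markers move with the comparison of control and KD below, and their part in it was not tested. In bulk RNA, fewer cells of a type and less RNA per cell cannot be told apart.

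A STAT3 dimer binds sites with the half-sites TTC and GAA. The letters TTCNNNGAA, which read the same on both strands, were searched for in the promoter windows of RefSeq (GRCm38.p6, the assembly that mm10 names), from 250 bases before to 50 bases after each start. All 8 genes have an entry, *Lifr* and *Pim1* with 2 starts each. A match was found in 1 of these 10 windows, that of *Socs3*. It was found in 8.30% of all 32851 windows and in 6.65% of the windows of genes with RNA-seq values. The match in *Socs3* begins 154 bases before its start. A spacer of 4 bases gave no match in the 10 windows, and a match in 6.95% of all windows and 5.23% of those of genes with RNA-seq values. A match is a description of letters and not a binding site. The 250 bases before the start are shown for *Socs3*, the gene with the largest fold change of the 8 and the window with the match (capitals mark the 9 bases), for *Pim1*, which had the next largest, and for *Jak1*, which was lower in KD:

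*Socs3* (chr11:117969367-117969616, minus strand): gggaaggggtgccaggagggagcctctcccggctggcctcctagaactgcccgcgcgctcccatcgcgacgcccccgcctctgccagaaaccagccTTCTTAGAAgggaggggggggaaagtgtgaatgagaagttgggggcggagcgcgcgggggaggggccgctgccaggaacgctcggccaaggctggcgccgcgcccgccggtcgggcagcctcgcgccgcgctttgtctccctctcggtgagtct
*Pim1* (chr17:29490535-29490784, plus strand): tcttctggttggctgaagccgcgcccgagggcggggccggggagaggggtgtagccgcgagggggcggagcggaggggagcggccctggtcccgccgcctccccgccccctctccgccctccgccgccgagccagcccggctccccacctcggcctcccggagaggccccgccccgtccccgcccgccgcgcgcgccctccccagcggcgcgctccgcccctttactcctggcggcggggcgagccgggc
*Jak1* (chr4:101265224-101265473, minus strand): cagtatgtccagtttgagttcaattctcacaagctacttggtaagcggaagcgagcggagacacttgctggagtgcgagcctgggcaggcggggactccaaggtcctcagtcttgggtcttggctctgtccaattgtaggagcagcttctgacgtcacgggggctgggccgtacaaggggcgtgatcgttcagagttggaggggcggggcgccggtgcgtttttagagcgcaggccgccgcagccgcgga

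All 3 stretches are rich in CG dinucleotides, with 26 in *Socs3*, 36 in *Pim1* and 19 in *Jak1*, against a median of 6 over all promoters and of 14 over the promoters of genes with RNA-seq values. The first promoters of *Lifr* and *Jak2* hold 43 and 37, the promoters of *Pim3*, *Il6st* and *Stat3* 31, 26 and 13, and the second promoters of *Lifr* and *Pim1* 3 and 4.

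Control and KD were compared for each gene with limma on log2(value + 0.5), fitted over all 15384 genes. A gene was called when its absolute log2 fold change was above 1 and its adjusted p below 0.01. *Socs3*, *Pim1* and *Il6st* were called, all higher in KD. *Lifr*, *Stat3* and *Pim3* were also higher at an adjusted p below 0.01 and *Jak1* was lower, but none of these 4 passed the fold threshold, and *Jak2* passed neither. The 3 calls among 8 genes stand beside 28.6% of all genes called in either direction, 8.07% called higher and 20.6% called lower. By adjusted p alone, 6 of 8 were higher and 1 lower, where 35.4% of all genes were higher and 37.3% lower. The groups did not overlap for 7 of the 8, which is also the case for 73.3% of all genes. The median log2 fold change was 0.83 over the 8 genes and -0.03 over all genes.

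*Lifr* (GeneID 16880, chr15:7129572-7197489 on mm10) encodes the subunit that is specific to LIF and related cytokines. Its library-size values in replicates 1 to 4 were 121, 118, 105 and 127 for control and 208, 215, 214 and 231 for KD, the order kept below. Every KD library was above every control library. The log2 fold change was 0.88 ± 0.06 (SE), 1.84-fold, with an adjusted p of 4.38e-13 (limma), and its 95% interval of 0.76 to 1.01 includes the fold threshold.

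*Il6st* (GeneID 16195, chr13:112464070-112506860) encodes gp130, the signalling subunit that LIFR shares with the receptors of the whole interleukin-6 family. It was measured at 54.9, 54.0, 46.3 and 61.4 in control and at 113, 113, 106 and 122 in KD libraries. Again the groups were well apart. *Il6st* rose by 1.07 ± 0.07 on the log2 scale, 2.09-fold (limma adjusted p = 3.10e-13). This call rests on the libraries used, since without control replicate 3, the lowest, the log2 fold change was 0.99 and fell short of the fold threshold. The ratio of *Lifr* to *Il6st* within a library was 2.17 in control and 1.91 in KD, a log2 difference of -0.19 ± 0.04 (exact two-sided permutation test, n = 4 and 4, p = 0.0286, adjusted over 4 ratios 0.0286), which turned to 0.17 with the exon length correction. That p is the smallest that 4 against 4 libraries can give. This ratio and those below are of values not divided by exon length, so they do not compare the levels of 2 genes.

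**Figure D1:**
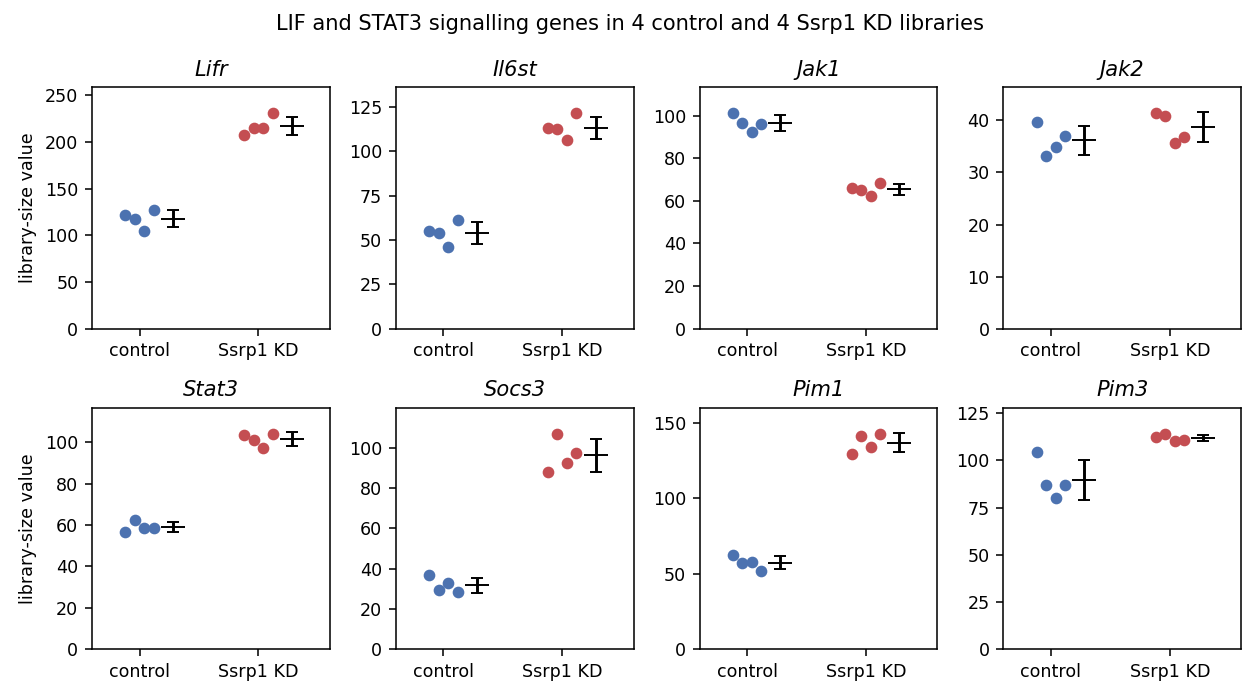
Library-size values (y axes, each from 0) of the 8 genes in the 4 control (blue) and 4 *Ssrp1* KD libraries (red), with the mean and SD of each group in black. *Socs3* stands at 28.2 to 36.8 in control and 88.0 to 107 in KD, *Jak1* is the only one with all KD libraries below the controls (with the spike-in scaling its log2 fold change turned to 0.46), and *Jak2* is the only one whose groups overlap.

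The kinases differed from the receptor subunits. *Jak1* (GeneID 16451, chr4:101151974-101265282), which encodes the Janus kinase with the main part in signalling through gp130, was at 101, 96.6, 92.4 and 96.0 in control and 66.0, 65.1, 62.3 and 68.3 in KD libraries. All KD values lay below all control values. Its log2 fold change was -0.56 ± 0.06, or 0.68-fold (limma adjusted p = 3.60e-09), a direction that turned with the spike-in scaling given below.

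*Jak2* (GeneID 16452, chr19:29251828-29313080) encodes a kinase that also binds gp130. Its values were 39.7, 33.2, 34.8 and 36.9 in control and 41.4, 40.9, 35.7 and 36.8 in KD libraries, and the groups overlapped. The log2 fold change of 0.10 ± 0.08 did not pass (limma adjusted p = 0.274), and its 95% interval reached from -0.07 to 0.26. The ratio of *Jak2* to *Jak1* was 0.38 in control and 0.59 in KD, a log2 difference of 0.65 ± 0.07 (exact permutation test, n = 4 and 4, p = 0.0286, adjusted 0.0286).

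*Stat3* (GeneID 20848, chr11:100886810-100939511) encodes the transcription factor at the centre of the pathway. Values of 56.8, 62.3, 58.7 and 58.8 in control stood against 104, 101, 97.1 and 104 in KD libraries. The spread within each group was small next to the distance between them. The log2 fold change was 0.78 ± 0.06, 1.71-fold (limma adjusted p = 5.39e-12), with a 95% interval of 0.65 to 0.90 that stays below the fold threshold.

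*Socs3* (GeneID 12702, chr11:117966079-117969366) encodes the inhibitor that binds gp130 and its kinases and is itself switched on by STAT3. It was at 36.8, 29.4, 32.6 and 28.2 in control and at 88.0, 107, 92.6 and 97.5 in KD libraries. The lowest KD library was far above the highest control. *Socs3* rose by 1.59 ± 0.08 on the log2 scale, 3.01-fold (limma adjusted p = 6.28e-16), a log2 fold change above that of 98.7% of all genes. Within a library, the ratio of *Socs3* to *Stat3* was 0.54 in control and 0.95 in KD. This is a log2 difference of 0.81 ± 0.12 (exact permutation test, n = 4 and 4, p = 0.0286, adjusted 0.0286), so *Socs3* was higher in KD also relative to *Stat3*.

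The Pim kinases promote growth and survival. *Pim1* (GeneID 18712, chr17:29491045-29495465) was at 62.3, 57.5, 57.9 and 51.6 in control and 130, 141, 134 and 143 in KD libraries. It rose by 1.25 ± 0.06 on the log2 scale, 2.38-fold (limma adjusted p = 9.79e-16).

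*Pim3* (GeneID 223775, chr15:88862194-88865726) was at 105, 86.9, 80.2 and 86.7 in control and 112, 114, 110 and 111 in KD libraries. Control replicate 1 came close to the KD libraries, and the groups did not overlap. Here the log2 fold change was 0.33 ± 0.07, 1.25-fold (limma adjusted p = 8.89e-05), a direction that turned with quantile normalisation. In values not divided by exon length the order of the 2 genes changed with the knock-down, since *Pim1* was at 0.64 of *Pim3* in control and at 1.22 in KD (log2 difference 0.92 ± 0.07, exact permutation test, n = 4 and 4, p = 0.0286, adjusted 0.0286). Per kb of exon, given below, their control ranges overlapped. A single factor per library leaves the 4 ratios as they are, but settings that act gene by gene do not. With the exon length correction given below the log2 difference of *Lifr* to *Il6st* turned to 0.17, and with quantile normalisation it was -0.32. The other 3 kept their direction in both, at 0.63 to 0.93. These settings were added for the ratios after seeing the data and give no test. The share of other gene pairs that reach the same p was not counted. Among single genes, the groups did not overlap for 73.3%.

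Directions and calls did depend on the scaling for some of the genes. With the authors' spike-in scaling the median log2 fold change of all genes was 0.95, and 7394 genes were called higher and 1082 lower, where the library-size values gave 1242 and 3163. The log2 fold changes were then 1.90 for *Lifr*, 2.08 for *Il6st*, 1.79 for *Stat3*, 2.60 for *Socs3*, 2.27 for *Pim1*, 1.35 for *Pim3* and 1.11 for *Jak2*, all 7 called higher, beside 48.1% of all genes. *Jak1* turned to 0.46 (limma adjusted p = 0.135) and its groups overlapped. Relative to the median of all genes *Jak1* remained lower, by -0.49. In the spike-in scaling 1 recovered read was worth 0.087 to 0.122 in each library, so these values largely follow the number of recovered reads. That number was at most 6680919 in control libraries, 9433193 in KD replicate 1 and 18262526 to 19856032 in KD replicates 2 to 4. Whether it stands for RNA content or for sequencing depth was not tested. In this scaling KD replicate 1 stood apart from the others, with *Socs3* at 81.0 there and at 198, 150 and 147 in KD replicates 2 to 4. Control replicate 4 stood apart too, with *Lifr* at 114 there and at 70.4 to 81.4 in the other controls. The SE of the fold changes of the 8 genes was 0.29, and no fit without these libraries was made in this scaling.

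Quantile normalisation, which forces 1 distribution on all libraries, gave 1518 genes called higher and 1656 lower. It left *Socs3* as the only 1 of the 8 called, with a log2 fold change of 1.37, beside 9.87% of all genes called higher. *Pim1* was at 0.91, *Il6st* at 0.75, *Stat3* at 0.45, *Lifr* at 0.44 and *Jak1* at -0.88, while *Jak2* (-0.06) and *Pim3* (-0.020) turned below 0. TMM scaling, edgeR and DESeq2 on recovered reads kept the same 3 calls as the library-size values, with directions unchanged for all 8. Their median log2 fold changes over all genes (-0.037, -0.044 and -0.014) were close to that of the library-size values (-0.035). They thus scale much as those values already were, and their agreement is no separate check of the scaling. No fit on plain shares of the reads was made.

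**Figure D2:**
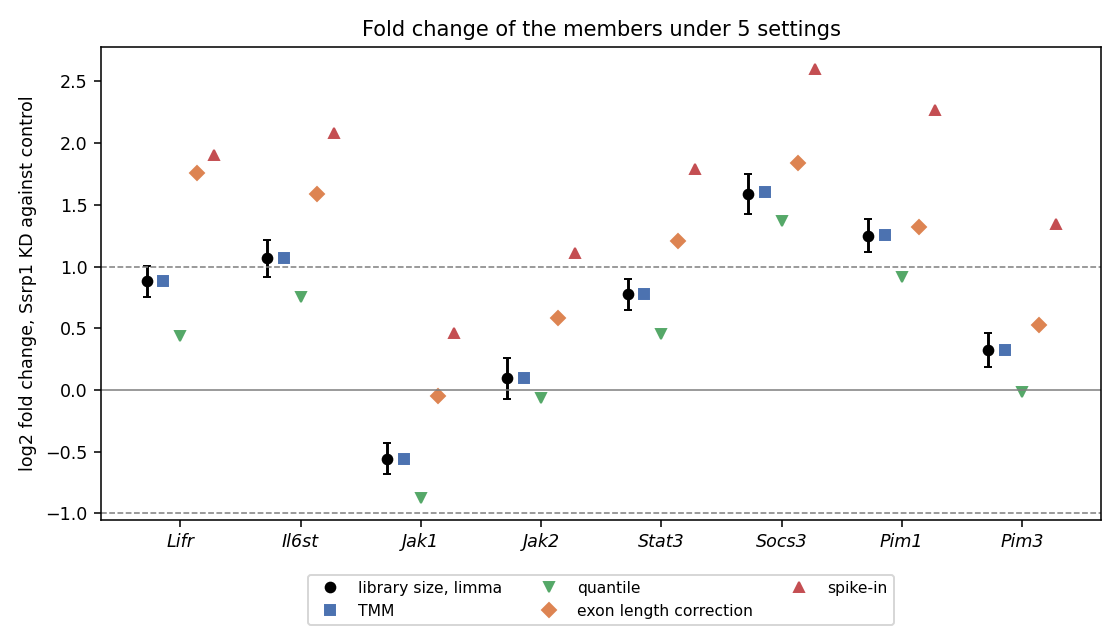
Log2 fold change of *Ssrp1* KD against control (y axis) for the 8 genes under 5 settings. Bars are the 95% interval of the library-size fit, and dashed lines mark the fold threshold. *Socs3* is past the threshold under all 5 settings, *Jak1* lies between -0.88 and 0.46, and the spike-in values are the highest for each gene.

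Exon length also moved with the fold changes. *Lifr* has the longest exons of the 8, with 10333 bp, and *Pim1* the shortest, with 1759 bp. The median log2 fold change of the 343 genes within 0.25 log2 units of the length of *Lifr* was -0.51. For the 2369 genes near the length of *Pim1* it was 0.09. Each library, control and KD, was then corrected for its trend with exon length against the control mean. The log2 fold change of *Lifr* became 1.76, that of *Il6st* 1.59 and that of *Stat3* 1.21. These 3 were called together with *Socs3* (1.84) and *Pim1* (1.32), beside 12% of all genes called higher (1845 higher and 2509 lower). *Jak1* was then at -0.05, on a scale where the median of all genes was 0.20.

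Levels were compared between genes per kb of exon. In control libraries the order of the mean values per kb was *Pim3* (37.0 ± 4.3, SD, n = 4), *Pim1* (32.6 ± 2.5), *Jak1* (18.2 ± 0.68), *Stat3* (13.2 ± 0.51), *Socs3* (11.6 ± 1.4), *Lifr* (11.4 ± 0.92), *Il6st* (9.93 ± 1.1) and *Jak2* (7.19 ± 0.56). The median of all genes was 8.05. The ranges of *Pim3* and *Pim1* overlapped, as did those of *Stat3* and *Socs3*, of *Socs3* and *Lifr*, and of *Lifr* and *Il6st*. In KD libraries *Pim1* led (77.9 ± 3.6), ahead of *Pim3* (46.3 ± 0.69) and *Socs3* (35.2 ± 3.0). *Stat3* (22.6 ± 0.72), *Lifr* (21.0 ± 0.94) and *Il6st* (20.8 ± 1.1) followed with overlapping ranges, and *Jak1* (12.3 ± 0.47) and *Jak2* (7.69 ± 0.57) came last. *Jak1* thus went from place 3 to place 7 of 8. Exon lengths are those of the deposited annotation.

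The authors' mean log2 CPM over control and KD libraries together, set per kb, ran from 5.88 for *Pim3* and 5.83 for *Pim1* to 2.95 for *Jak2*. *Socs3* was at 4.83. *Jak1*, at 3.91, was next to last, as in the KD libraries and unlike the control libraries. It is not stated which of the study's RNA-seq sets of control and KD this mean covers. In their table of ES cells and early neural progenitors (NPCs), the mean per kb over both kinds of cells was 5.57 for *Pim3*, 5.27 for *Pim1*, 3.58 for *Socs3* and 3.28 for *Jak2*. The 3 NPC libraries came from E14 embryoid bodies given 1 µM retinoic acid for 4 days and then kept 3 days without LIF, so this mean mixes cells with and without LIF. These tables were normalised separately and hold no values per library, so no comparison between them was made.

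The rest of the pathway was described with a list of 53 other genes in 7 roles, of which 48 had a value. The ligand genes *Il6*, *Il11*, *Cntf* and *Clcf1* and the receptor gene *Cntfr* had no row in the table. Of the 48 genes, 2 were called higher and 3 lower in KD, 10.4% in all, beside the 28.6% of all genes. By adjusted p alone 19 were higher and 14 lower, and the median log2 fold change was 0.16.

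Among the ligands, *Osm*, which encodes oncostatin M, was called lower at a log2 fold change of -1.01 ± 0.32 (limma adjusted p = 0.00581). Control replicate 1 was at 0.95 and stood with the KD libraries, which were at 1.10 to 1.52, while the other control libraries were at 4.24 to 5.20. Its lowest library held 7 reads, and without control replicate 1 the log2 fold change was -1.47. The call was lost, at log2 fold changes of -1.05 to -0.81, when any 1 library other than control replicate 1 or KD replicate 2 was left out, and quantile normalisation turned the direction (0.15). The gene of LIF itself was at 22.5 to 25.2 in control and 15.5 to 18.0 in KD libraries, a log2 fold change of -0.53 that did not reach the fold threshold and turned to 0.47 with the spike-in scaling. With the exon length correction it was -0.14 (limma adjusted p = 0.194), on a scale where the median of all genes was 0.20. It was added for its role, outside the rule for named genes. LIF was also supplied in the medium.

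*Osmr*, the gene of the receptor subunit for oncostatin M, had the largest fold change of the list. It was at 11.4, 15.8, 14.9 and 11.2 in control and 1.24, 0.59, 0.39 and 0.46 in KD libraries. *Osmr* fell by 3.60 on the log2 scale (SE 0.23, limma adjusted p = 8.34e-14), with 6 reads in the lowest library. Thus *Lifr* and *Osmr*, whose products both pair with gp130, differed in direction.

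Neither of the other Janus kinase genes was called. *Jak3*, whose product acts with the receptors of the interleukin-2 family, had a log2 fold change of -0.64 (limma adjusted p = 2.30e-08), with all KD libraries (29.7 to 35.9) below all controls (48.3 to 53.2), and turned to 0.38 with the spike-in scaling. None of 6 other STAT genes was called, and 2 of them were higher and 3 lower by adjusted p alone, beside 35.4% and 37.3% of all genes. *Stat6*, the STAT factor of interleukin-4 signalling, came closest at 0.96 ± 0.08 (limma adjusted p = 2.77e-11), and was called without control replicate 2 (1.01) or 3 (1.00). Of 5 adaptor genes none was called. *Gab1*, whose product links the receptor to the MAP kinase pathway, showed the largest difference, -0.47 ± 0.06 (limma adjusted p = 6.22e-08), which turned to 0.55 with the spike-in scaling. With the exon length correction *Gab1* was at -0.0070 (limma adjusted p = 0.934), on a scale where the median of all genes was 0.20.

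Among 14 other inhibitor genes, 1 was called. *Cish*, a relative of *Socs3* that is best known as a target of STAT5, was at 8.44, 7.23, 6.10 and 7.25 in control and 1.48, 2.05, 2.27 and 1.91 in KD libraries. *Cish* fell by 1.68 on the log2 scale (SE 0.20, limma adjusted p = 2.06e-08), where *Socs3* had risen. The call was lost with the spike-in scaling (-0.77, limma adjusted p = 0.0194) and with quantile normalisation (-0.57, limma adjusted p = 0.0253). The promoter window of *Cish* holds 2 matches to the letters of the STAT motif, and both windows of *Gab1*, which was not called, also hold a match. These are 3 of the 43 windows of the list (6.98%), against 6.65% of the windows of genes with RNA-seq values. By adjusted p alone, 7 of the 14 inhibitor genes were higher and 3 lower, beside 35.4% and 37.3% of all genes.

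In the group of 15 other targets of LIF and STAT3 known from ES cells, 2 were called, both higher, beside 8.07% of all genes. *Ier3*, an early response gene, was at 6.40, 8.43, 4.13 and 6.02 in control and 20.9, 20.7, 19.4 and 16.6 in KD libraries, a log2 fold change of 1.59 ± 0.16 (limma adjusted p = 5.74e-10). *Bcl3*, a nuclear partner of NF-κB, was at 5.44, 7.23, 7.35 and 5.61 in control and 16.6, 14.2, 11.1 and 14.3 in KD libraries. It rose by 1.07 ± 0.15 on the log2 scale (limma adjusted p = 3.34e-07) and fell short of the fold threshold, at 0.99, without KD replicate 1 and, at 0.93, with a pseudocount of 2. The median of the group was 0.36, with 8 higher and 1 lower by adjusted p alone, where 35.4% and 37.3% of all genes were.

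**Figure D3:**
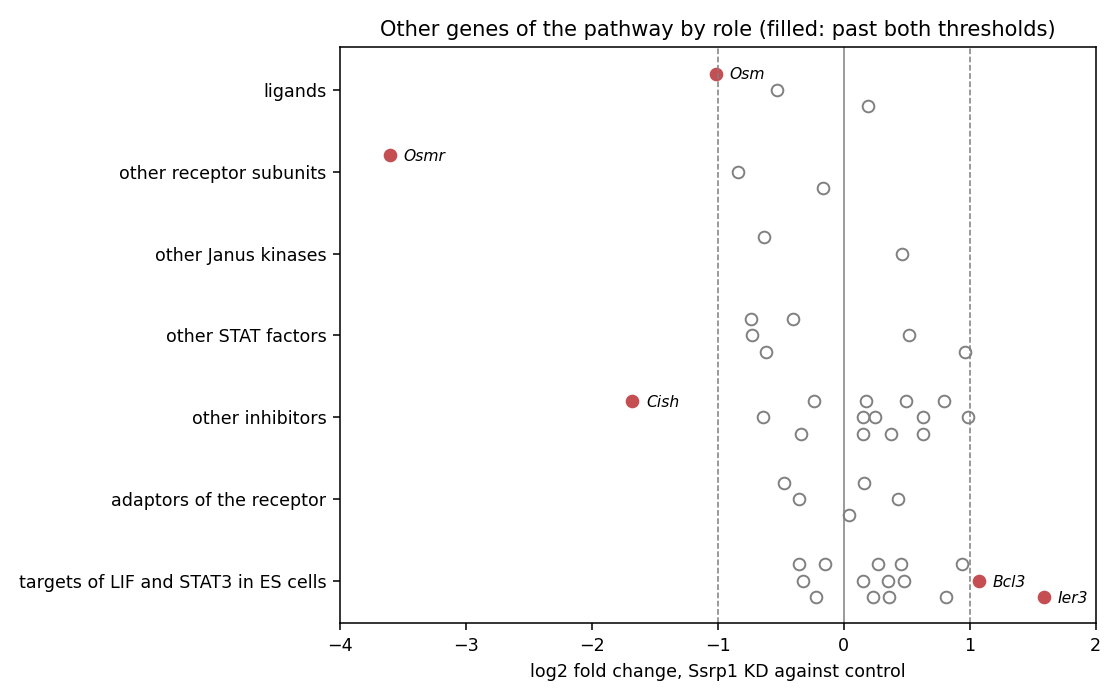
Log2 fold change of *Ssrp1* KD against control (x axis) for the 48 other pathway genes with a value, 1 circle per gene, in rows by role. Filled circles are the 5 genes past both thresholds (dashed lines mark the fold threshold), with *Osmr* at -3.60 and *Ier3* at 1.59 the ends of the range.

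FACT occupancy was read from the peak lists, 1 per subunit, which the authors called over both replicates of a subunit and assigned to the nearest gene. Positions are as the lists give them, on mm10, and the lists hold no peak heights. SSRP1 peaks were assigned to 6 of the 8 genes, 14 peaks in all, and SUPT16 peaks to 4 of the 8, 5 peaks in all. Of the 15384 genes, 36.0% had a SSRP1 peak and 18.6% a SUPT16 peak. *Stat3* and *Jak1* had no peak of either subunit. A SSRP1 peak lay over an annotated start in *Socs3*, *Pim1*, *Pim3* and *Jak2*, which was the case for 15.1% of the genes with an annotated start. A SUPT16 peak lay over the start of *Il6st* alone, against 6.91% of such genes.

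The SSRP1 peak at the start of *Socs3* (chr11:117969362-117969656) is 294 bp long and covers the whole promoter stretch printed above. A longer SSRP1 peak of 2058 bp (chr11:117963874-117965932) lay just past the end of the gene and overlapped a SUPT16 peak. At *Jak2*, a SSRP1 peak (chr19:29251432-29251922) covered the start and overlapped a SUPT16 peak (chr19:29251250-29251460) whose near end was 343 bp upstream. These were the only places at the 8 genes where peaks of both subunits met.

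*Pim1* had 7 SSRP1 peaks, a number that 0.56% of genes reached or passed. One lay over the start (chr17:29490748-29491336), 4 between 24.8 and 39.1 kb upstream and 2 downstream. *Pim3* had a SSRP1 peak of 980 bp over the start (chr15:88862186-88863166) and 1 of 3136 bp at the end of the gene. The single SSRP1 peaks of *Lifr* and *Il6st* were 13.1 and 24.3 kb upstream of the nearest start. With a rule of 5000 bp around a start or in the gene, *Lifr* lost its peak, *Il6st* kept only that of SUPT16, *Pim1* kept 2 SSRP1 peaks and lost its SUPT16 peak, and *Socs3* lost both SUPT16 peaks. In all, 7 SSRP1 peaks at 4 genes and 2 SUPT16 peaks at 2 genes remained. When peaks shorter than 500 bp were left out, 8 SSRP1 peaks at 4 genes and no SUPT16 peak remained. Genes with and without a SSRP1 peak at the start were found on both sides of the fold threshold: *Socs3* and *Pim1* were called and *Jak2* and *Pim3* were not, and *Il6st* was called without one. No test was made over 8 genes.

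**Figure D4:**
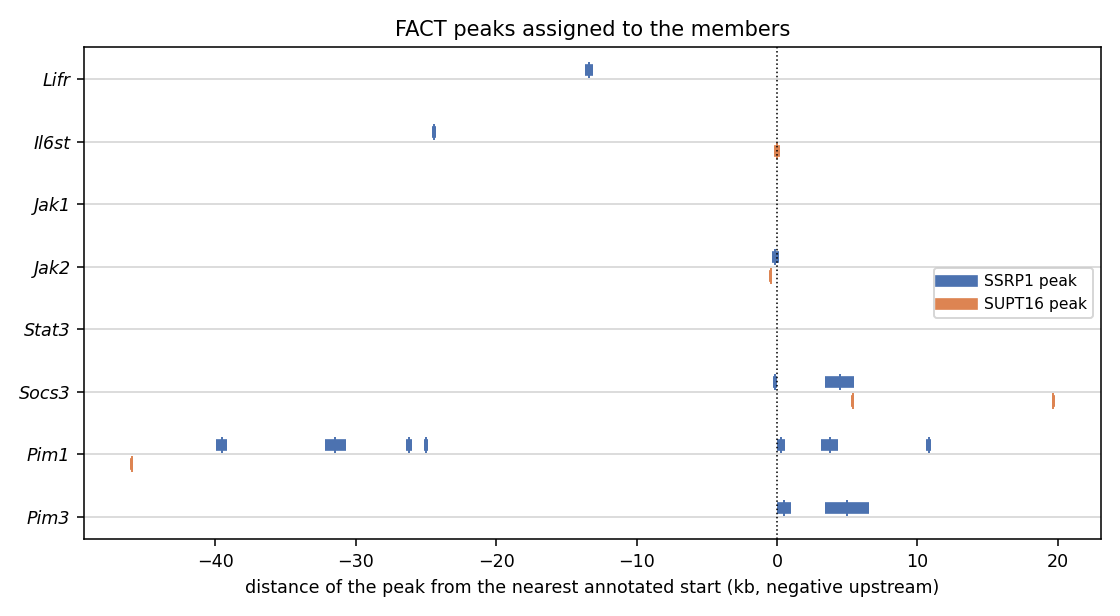
SSRP1 (blue) and SUPT16 peaks (orange) assigned to each of the 8 genes, by distance from the nearest annotated start in kb (x axis, negative is upstream). Bars have the length of the peak and ticks mark its centre. *Pim1* carries 7 SSRP1 peaks spread over its surroundings, and the rows of *Jak1* and *Stat3* are empty.

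The letters TTCNNNGAA were also searched for in the 300 bases about the centre of each peak. A match was present in 3 of the 14 SSRP1 peaks of the 8 genes and in 6.23% of all SSRP1 peaks, and in none of 5 SUPT16 peaks, against 5.47% of all. The 3 matches lie in the peak over the start of *Socs3*, where it is the match of the promoter, in the upstream peak of *Il6st*, and in 1 of the upstream peaks of *Pim1*, which are the 3 genes called higher. They are shown with 10 bases on each side on the strand of the gene, with the motif in capitals:

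*Socs3* (chr11:117969502-117969530, 154 bases before the start): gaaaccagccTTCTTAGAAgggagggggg
*Il6st* (chr13:112439523-112439551, 24537 bases before the start): tgattgcaaaTTCCCTGAAgaaaagaaac
*Pim1* (chr17:29465913-29465941, 24862 bases before the start): tcttgtggaaTTCCAAGAAgaattcaagg

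The number of SSRP1 peaks searched was not equal. It was 7 for *Pim1*, 2 each for *Socs3* and *Pim3*, 1 each for *Il6st*, *Lifr* and *Jak2*, and 0 for *Stat3* and *Jak1*. The link between these matches and the calls was seen after the values were known and was not tested.

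Chromatin RNA, the RNA that stays bound to chromatin after cell fractionation, was counted in 2 libraries of E14 cells with no KD counterpart. The totals were 3441643 and 3393923 counts, of which *Snord49a*, a small nucleolar RNA gene, took 20.0% and 21.2% and protein-coding genes 5.56% and 9.35%. Counts of the 8 genes were therefore low. *Lifr* had 93 (exact Poisson 95% interval 75.1 to 114) and 195 (169 to 224) counts, *Il6st* 24 (15.4 to 35.7) and 51 (38.0 to 67.1), and *Stat3* 23 (14.6 to 34.5) and 48 (35.4 to 63.6). *Socs3* had 22 (13.8 to 33.3) and 38 (26.9 to 52.2), *Pim1* 10 (4.80 to 18.4) and 36 (25.2 to 49.8), and *Pim3* 27 (17.8 to 39.3) and 46 (33.7 to 61.4). *Jak1* with 15 (8.40 to 24.7) and 20 (12.2 to 30.9) and *Jak2* with 8 (3.45 to 15.8) and 11 (5.49 to 19.7) were the lowest. The intervals cover counting error only.

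All 8 had more counts in the second library, by 1.33 times for *Jak1* to 3.60 times for *Pim1*, and the share of protein-coding counts was also higher there. In CPM of protein-coding counts (counts scaled to a fixed total) and per kb, the mean of both libraries was 59.1 for *Pim3*, 53.3 for *Lifr*, 47.1 for *Pim1*, 43.0 for *Socs3*, 30.3 for *Stat3*, 26.2 for *Il6st*, 13.3 for *Jak1* and 7.60 for *Jak2*. *Pim3* and *Jak2* were thus first and last by this mean as in the control RNA-seq values. The top of the order differed between the libraries, since *Pim1* led in the second with 64.5, ahead of *Pim3* with 59.9 and *Lifr* with 59.4, and was at 29.7 in the first. *Jak2* was last in both. *Jak1* was in place 3 of 8 in control RNA-seq per kb and in place 7 by the mean in chromatin RNA, and *Lifr* was in place 6 and in place 2. There is no test between these 2 kinds of library.

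**Figure D5:**
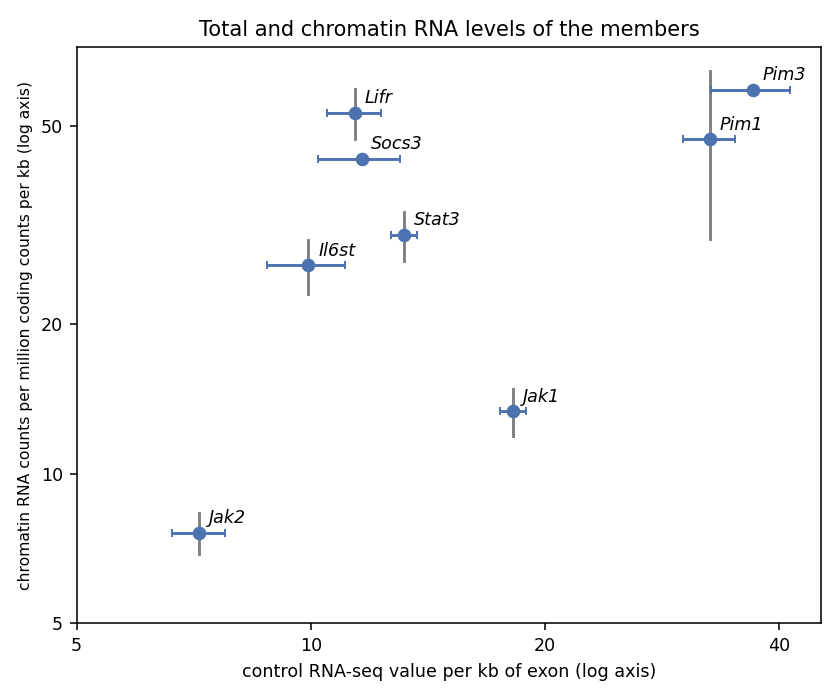
Mean control library-size value per kb of exon (x axis, log, bars are the SD over 4 libraries) against chromatin RNA in CPM of protein-coding counts per kb (y axis, log, points are the mean and grey lines join the 2 libraries) for the 8 genes. *Lifr* and *Socs3* lie above *Jak1* in chromatin RNA (53.3 and 43.0 against 13.3) and below it in control RNA-seq (11.4 and 11.6 against 18.2).

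The genes with the profile nearest to that of *Socs3*, *Stat3* and *Lifr* over the 8 libraries were sought among 12928 genes outside both lists, as the root mean square distance of log2 values centred on the control mean. Nearest to *Socs3* were *Gpa33* (distance 0.08), *Erp29* (0.10) and *Shmt2* (0.10), with log2 fold changes of 1.53, 1.52 and 1.59. *Abcd3* (0.03), *Tdh* (0.04) and *Plcd1* (0.04) were nearest to *Stat3*, with 0.78, 0.78 and 0.77. *Zbtb11* (0.03), *Tufm* (0.04) and *Pfn1* (0.05) were nearest to *Lifr*, with 0.87, 0.89 and 0.88. The distance rests mostly on the difference between the 2 groups, so these are genes with a like fold change.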

How the data were processed

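RNA-seq values came from 4 control and 4 KD libraries of the spike-in set. The authors aligned reads to mm10 with STAR 2.5.1b, counted genes with featureCounts and deposited gene signal scaled to library size and to spike-in RNA. Within 0.1, 100% of these values were whole reads of a library. Both limma tables that the authors deposited (KD and control, NPCs and mESCs) hold their own log2 fold changes and p-values, which were not used, and a mean log2 CPM, which was. A table of exon usage holds only such comparisons and was not used. Chromatin RNA was deposited as raw counts per gene. Peaks were called by the authors with Bowtie2 2.2.6 alignments and PePr and assigned with ChIP-Enrich; of the deposited columns only positions and genes were used, not the other column, the peak length within a gene's locus.

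Groups were taken from the labels. Log2(library-size value + 0.5) was tested with limma 3.58.1 (trend, Benjamini-Hochberg over 15384 genes) in R 4.3.3. On simulated data limma, edgeR 4.0.16 and DESeq2 1.42.0 each recovered 100% of 200 genes changed 4-fold among 15384, with 0 false calls. The simulation left all other genes unchanged and held no trend with exon length. It does not bear on fold changes near the threshold, such as that of *Il6st*. Ratios were tested by exact two-sided permutation over 70 regroupings with scipy 1.17.1. Named genes are all 8 members, the other pathway genes past both thresholds or, in a role with none, the one with the largest absolute log2 fold change, and the 3 genes nearest in profile to *Socs3*, *Stat3* and *Lifr*. The members and lists were chosen with earlier results of these data known, and 1 further gene, left out of the pathway list, is not reported here. Replicate numbers were not used to pair the samples in the main fit. MNase-seq, NET-seq, ATAC-seq and values per NPC library were not analysed here.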

Additional observations from a re-analysis of the deposited data

How the results depend on the processing

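With the spike-in scaling 8476 genes were called in place of 4405. The log2 fold changes of *Lifr* (1.90), *Stat3* (1.79), *Pim3* (1.35) and *Jak2* (1.11) then passed the fold threshold. Those of *Jak1* (0.46), *Jak3* (0.38), *Lif* (0.47) and *Gab1* (0.55) turned above 0. Of the 48 pathway genes outside the 8, 28 were called higher (2 before) and 1 lower (3 before). Of all genes, 48.1% were called higher in this scaling. Quantile normalisation ended the calls of *Il6st* (0.75) and *Pim1* (0.91) and turned *Jak2* (-0.063), *Pim3* (-0.020) and *Osm* (0.15). It called 6 pathway genes higher and 1 lower, beside 9.87% of all genes called higher. The exon length correction brought *Lifr* (1.76) and *Stat3* (1.21) past the threshold and called 9 pathway genes higher, beside 12% of all genes. DESeq2 called 4 higher (1398 of all genes), and a pseudocount of 2 called 1 higher (1083 of all genes). A mean value above 5 left 1 lower (2024 of all genes). The log2 ratio of *Lifr* to *Il6st* turned to 0.17 with the exon length correction and was -0.32 with quantile normalisation, that of *Jak2* to *Jak1* was 0.81 with the latter and that of *Pim1* to *Pim3* 0.79 with the former, settings chosen for the ratios after seeing the data. The cause of these changes, beyond the construction of each scaling, was not tested.

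Leaving out 1 library gave 4254 to 4635 called genes, 2 to 4 pathway genes called higher (4 without control replicate 2 or 3), a log2 fold change of 0.99 to 1.13 for *Il6st*, and log2 ratio differences of -0.21 to -0.17 (*Lifr* to *Il6st*), 0.61 to 0.70 (*Jak2* to *Jak1*), 0.89 to 0.98 (*Pim1* to *Pim3*) and 0.76 to 0.90 (*Socs3* to *Stat3*), where no p below 0.0571 is possible. Deviations of same-numbered control and KD libraries had correlations of 0.047, 0.014, -0.057 and -0.043. Those of differently numbered libraries ran from -0.11 to 0.088. These values gave no sign of a pairing but cannot exclude it, and the labels do not state any. A replicate block called 4405 genes and changed no call of the 8. The ratio differences under that pairing were -0.19, 0.65, 0.92 and 0.81, with an exact p of 0.125, the smallest that 4 pairs can give. Chromatin counts of 8 to 195 allow no finer order between neighbours, and values of 7 reads or fewer limit *Osm* and *Osmr*.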
